A study of Mus musculus with 4 samples.

Results

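The conjugating enzymes of drug metabolism, the aldehyde dehydrogenases and the ABC transporters were examined in RNA of the mouse gastric corpus epithelium, the lining of the acid-secreting part of the stomach. Members were taken by gene symbol: every gene read by a probe set with exactly 1 symbol that starts with Gst, Ugt1, Ugt2, Sult or Aldh, or with Abc followed by a subfamily letter from a to g and a digit. This gave 107 of the 18193 genes read on the array: 21 glutathione S-transferase (Gst) genes, 8 UDP-glucuronosyltransferase (Ugt) genes, 13 sulfotransferase (Sult) genes, 20 aldehyde dehydrogenase (Aldh) genes and 45 Abc genes. No Ugt1 gene was a member, because all 3 probe sets for them carry several symbols. Names chose the members, so the rule also took in genes that do other work than drug handling, such as Abce1 and the Abcf genes, which act on ribosomes and move no substrate across a membrane.

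The mice were wild type and 6 weeks old when treated, and the labels name FVB/N, C57BL/6 and BALB/c mice without saying which strain, or which sex, went onto which array. Tamoxifen, an estrogen receptor modulator, was given into the peritoneum at 5 mg for each 20 g of body weight, and its vehicle was sunflower seed oil (90%) with 10% ethanol. Dosing lasted 1 or 3 days, which the labels do not tie to arrays, and was meant to bring on SPEM, a metaplasia of the corpus glands. The 4 groups were vehicle at 2.5 days and tamoxifen at 12 hours, at 2.5 days and at 4.5 days, each 1 array of RNA pooled from 3 mice, so there is no spread between samples, no test and no p-value. All 3 comparisons with vehicle share the 1 vehicle array, and only the one at 2.5 days matches it in time.

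Phase II enzymes attach a soluble group to a drug or to one of its metabolites: glutathione by the Gst enzymes, glucuronic acid by the Ugt enzymes and sulfate by the Sult enzymes. Aldehyde dehydrogenases oxidise aldehydes that arise from alcohols, lipids, amino acids, folate and retinal, and several of them work in mitochondria. ABC transporters use ATP to export conjugates, drugs, sterols and phospholipids, and tamoxifen itself is cleared through hydroxylated metabolites that are then glucuronidated or sulfated.

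Values are log2 RMA expression, on which a difference of 1 is 2-fold. A gene counts below as higher or lower only if its difference from the other array was at least 2-fold and the gene reached, on the brighter of both arrays, the median probe set of that array (5.31 in vehicle), which is also what expressed means here. How bright a probe set is depends on its probes as well as on its transcript, so levels are compared between arrays and not between genes. Summed levels of a list add signal over its genes, so the brightest probe sets weigh most in them. For the error of a single difference there is only an indirect gauge. The tamoxifen arrays at 2.5 and 4.5 days, the closest pair, had differences with a robust SD of 0.15 among expressed genes. The same measure was 0.27, 0.35 and 0.39 for the tamoxifen arrays set against vehicle, in order of time. Markers of the gland cells were present in vehicle, with 8 of 8 parietal, 5 of 5 chief, 3 of 3 mucous neck and 4 of 4 surface mucous genes at or above the array median. Markers of other tissues were present too, among them 8 of 10 squamous, 6 of 6 smooth muscle and 5 of 9 pancreatic acinar genes, while both erythroid genes were below the median on every array. In pooled tissue RNA fewer cells of a type and less RNA per cell cannot be told apart. The 12-hour array stood apart: the summed level of the squamous genes was 8.33 there on the log2 scale against 13.09 in vehicle, 12.41 at 2.5 days and 12.54 at 4.5 days. The summed level of the acinar genes was 16.26 at 12 hours against 14.82, 14.32 and 13.14 on those 3 arrays. Outside 12 hours most of that sum was Clps, at 14.67, 14.16 and 12.75 on those arrays and 14.65 at 12 hours. The median level of the acinar genes was 12.59 at 12 hours against 6.05 in vehicle, 5.70 at 2.5 days and 5.58 at 4.5 days. In order of time, 8, 2 and 1 squamous genes were at least 2-fold lower and 0, 1 and 1 higher, and 8, 0 and 0 acinar genes were higher and 0, 1 and 2 lower. Among the remaining lists 0, 1 and 1 of 3 mucous neck genes, 1, 4 and 1 of 7 macrophage genes and 0, 0 and 3 of 4 mast cell genes were higher. Lower were 1, 0 and 0 mucous neck genes, 0, 0 and 2 of 6 endocrine, 1, 2 and 2 of 6 enterocyte, 1, 1 and 1 of 6 hepatocyte, 1, 0 and 0 of 5 fibroblast, 0, 1 and 0 of 3 endothelial and 0, 1 and 1 of 3 adipocyte genes. No surface mucous, smooth muscle, erythroid, T cell or B cell gene passed 2-fold.

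Of the 107 members 9 were at least 2-fold from vehicle at 1 or more times, 8 of them lower and 1 higher. The remaining 98 were so at none, and they include the 29 members below the median on every array, which the rule cannot count. Within 0.5 of vehicle on the log2 scale lay 77.9%, 73.1% and 74.4% of expressed members in order of time. Of all expressed genes 87.8%, 79.3% and 75.5% did. The Gst and Aldh shares were below those of all genes at each time, and the Ugt and Abc shares above, the Ugt share on 2 expressed genes only. The Sult share, on 6 expressed genes, was below at 12 hours only. With the 12-hour array left out of the count, all 9 remained. At 12 hours 1 member was higher and 2 were lower among 77 expressed members, at 2.5 days 1 and 5 among 78, and at 4.5 days 1 and 7 among 78. Over all expressed genes 0.996% were higher and 1.92% lower at 12 hours, 3.32% and 1.94% at 2.5 days, and 3.80% and 2.72% at 4.5 days. Members past 2-fold made up 1.30% and 2.60% of the expressed members at 12 hours, 1.28% and 6.41% at 2.5 days, and 1.28% and 8.97% at 4.5 days. The share of higher members was thus below that of all genes at 2.5 and 4.5 days, and the share of lower members was above it at both times, on counts too small to carry more than that description. The median difference over expressed members was -0.13, -0.11 and -0.10 in order of time, and over all expressed genes -0.04, 0.02 and 0.00.

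The 8 lower members were 4 Aldh genes (Aldh1l1, Aldh1l2, Aldh6a1 and Aldh7a1), 3 Gst genes (Gstk1, Gstt1 and Gstm7) and Abca8a, and the 1 higher member was Aldh1a3. The promoters of the members that were past 2-fold at 2 or more times and have an entry in the RefSeq promoter table are shown here, because these transcripts were lower at several times. Each run is the 250 bases before the annotated start (the start farthest upstream where there are several), from RefSeq on build GRCm38, 5′ to 3′ along the gene's strand, with capitals for a motif match. Members in that group without an entry are Aldh1a3 and Aldh1l2.
Gstk1, chr6:42245685-42245934, plus strand: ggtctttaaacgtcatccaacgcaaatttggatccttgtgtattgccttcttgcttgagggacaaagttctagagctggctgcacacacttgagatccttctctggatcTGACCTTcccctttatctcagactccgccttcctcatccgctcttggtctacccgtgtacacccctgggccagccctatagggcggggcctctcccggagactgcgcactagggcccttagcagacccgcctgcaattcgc
Aldh1l1, chr6:90550543-90550792, plus strand: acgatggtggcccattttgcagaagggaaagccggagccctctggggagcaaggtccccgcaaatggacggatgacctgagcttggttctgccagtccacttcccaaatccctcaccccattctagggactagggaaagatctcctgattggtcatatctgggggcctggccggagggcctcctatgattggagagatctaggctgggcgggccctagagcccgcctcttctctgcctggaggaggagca
Aldh6a1, chr12:84451025-84451274, minus strand: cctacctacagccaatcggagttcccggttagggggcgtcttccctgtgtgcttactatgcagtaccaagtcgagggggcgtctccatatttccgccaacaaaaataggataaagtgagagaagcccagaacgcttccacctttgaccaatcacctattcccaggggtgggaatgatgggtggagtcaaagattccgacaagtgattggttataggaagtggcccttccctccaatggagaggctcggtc

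Both strands were searched for 4 motifs: the antioxidant response element core TGACNNNGC, bound by NRF2; the dioxin response element core GCGTG, bound by the aryl hydrocarbon receptor; the estrogen-related receptor core AAGGTCA; and the ATF4 composite element TGATGNAA. The single match in these 3 windows was the estrogen-related receptor core at positions -141 to -135 from the start of Gstk1, on the opposite strand, where the window reads TGACCTT. Over all 32851 promoter windows of the same length, 10.2% held the first motif, 28.2% the dioxin element, 4.08% the estrogen-related receptor core and 3.45% the ATF4 element. Over the 108 windows of the 87 members with an entry the shares were 8.33%, 24.1%, 10.2% and 1.85%. The 10.2% stands for 11 windows. Some members have several windows, which are not independent counts, and no share was tested. A match describes the letters in a window and is no binding site or cause, and no match says only that these letters are not in it.

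Aldh1a3, which oxidises retinal to retinoic acid, was the 1 member higher than vehicle, and it was so at all 3 times. Its level was 5.78 in vehicle, 6.87 at 12 hours, 7.22 at 2.5 days and 7.68 at 4.5 days. Vehicle was lowest and the 4.5-day array highest, and the folds over vehicle were 2.14, 2.72 and 3.74. These values come from the brightest of 3 probe sets. The other two lay near the array median, from 5.06 to 5.85, and differed from vehicle by 0.37 and 0.37 at 12 hours, 0.22 and 0.19 at 2.5 days, and 0.51 and 0.79 at 4.5 days. All 3 probe sets therefore had the same sign at each time, and the 2-fold call rests on 1 of them: the mean over the probe sets gave 0.61, 0.62 and 1.06, past 2-fold at 4.5 days only.

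The other Aldh1a genes did not share this pattern. Aldh1a2, a retinoic acid enzyme known mostly from mesenchyme, was at 8.78 in vehicle and at 8.27, 8.45 and 8.40 with tamoxifen in order of time. Aldh1a1, a cytosolic retinal dehydrogenase, differed by -0.42, -0.15 and -0.17 from a vehicle level of 12.19. Aldh1a7, its close paralog, differed by -0.13, 0.42 and 0.29. Aldh1a1 and Aldh1a7 are similar enough in sequence that their probe sets may share signal.

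**Figure D1:**
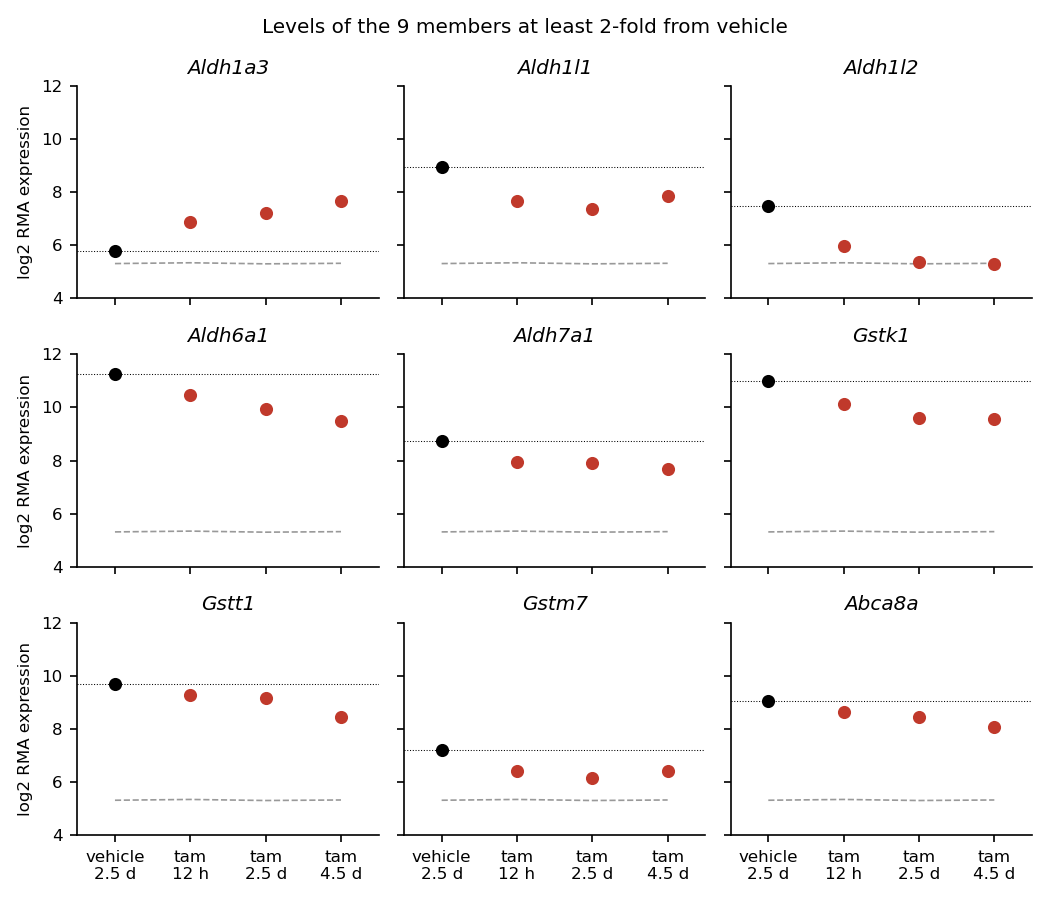
Log2 RMA expression (y axis) of the 9 members at least 2-fold from vehicle, on the vehicle array (black) and the 3 tamoxifen arrays (red), 1 array each; the dotted line marks the vehicle level and the dashed line the array medians. Aldh1a3 lies above its vehicle level of 5.78 on all 3 tamoxifen arrays and the other 8 genes lie below theirs.

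Both formyltetrahydrofolate dehydrogenases, which return folate-bound one-carbon units as carbon dioxide, were lower at all 3 times. Aldh1l2, the mitochondrial enzyme, was at 7.48 in vehicle, 5.98 at 12 hours, 5.38 at 2.5 days and 5.28 at 4.5 days. It was lower by 2.82-fold, 4.26-fold and 4.58-fold and ended at 5.28, just under the median of the 4.5-day array. Aldh1l1, the cytosolic enzyme, was at 8.94 in vehicle and at 7.68, 7.36 and 7.85, which is 2.40-fold, 2.99-fold and 2.12-fold lower. Its other probe set, dimmer than the median on the tamoxifen arrays, differed by -0.40, -0.65 and -0.65. The mean over both probe sets was past 2-fold at 2.5 days only, at -1.11, and after subtraction of the hybridisation controls the 4.5-day difference was -0.92.

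The remaining lower Aldh genes were Aldh6a1 and Aldh7a1. Aldh6a1, the methylmalonate semialdehyde dehydrogenase of valine and pyrimidine breakdown, was at 11.25 in vehicle, 10.45 at 12 hours, 9.93 at 2.5 days and 9.50 at 4.5 days. Each later array was lower than the one before, and the folds below vehicle were 1.74, 2.50 and 3.36. Aldh7a1, which acts in lysine breakdown, was at 8.72, 7.96, 7.91 and 7.67 in the same order and passed 2-fold at 4.5 days only, at 2.08-fold. Of its 3 probe sets the other two were below the median on every array and had differences of -0.20 to 0.24. The mean over the probe sets at 4.5 days was -0.40 and the value after subtraction of the hybridisation controls -0.89, both short of 2-fold.

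Other Aldh genes, chosen after their values were seen, stayed short of 2-fold on every array. Aldh4a1, of proline breakdown, differed by -0.76, -0.89 and -0.73. Aldh5a1, the succinic semialdehyde dehydrogenase of GABA breakdown, differed by -0.84, -0.32 and -0.71. Aldh2, the mitochondrial enzyme that clears acetaldehyde, differed by -0.08, -0.25 and -0.49, and Aldh18a1, which makes proline rather than breaking it down, by 0.02, 0.23 and 0.25. Aldh9a1, of carnitine and polyamine metabolism, differed by -0.25, -0.18 and -0.09.

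Of the 8 parietal cell markers 5, 7 and 6 were at least 2-fold lower in order of time. Their summed level was 15.05 in vehicle and 14.09, 13.54 and 13.83 with tamoxifen. Of the 5 chief cell markers 1, 4 and 5 were lower. Parietal cells are known to be rich in mitochondria. The part of either cell type in the lower Aldh and Gst values was not tested.

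Aldh3 enzymes, which oxidise medium-chain, aromatic and fatty aldehydes, had no member past 2-fold as deposited. Aldh3a1, known for its abundance in cornea and stomach, was at 11.46 in vehicle, 12.20 at 12 hours, 12.36 at 2.5 days and 11.52 at 4.5 days. It lay above vehicle by 0.74 and 0.90 at the first 2 times and by 0.05 at the last. Subtraction of the hybridisation controls took the 2.5-day difference to 1.02, past 2-fold. The step of -0.84 of Aldh3a1 from 2.5 to 4.5 days was the lowest among expressed members. Aldh3a2, the fatty aldehyde dehydrogenase, differed by 0.11, 0.32 and 0.23. Aldh3b2, known from epidermis, differed by -0.56, -0.73 and -0.41. Over all 20 Aldh genes the median difference was -0.24, -0.19 and -0.35, with 15, 13 and 14 below vehicle. Among all 18193 genes 9654, 9635 and 9596 were below vehicle at these times. Subtraction of the hybridisation controls brought the Aldh medians at 2.5 and 4.5 days to -0.062 and -0.18. The other reading of probe sets, by the middle absolute difference, brought the 4.5-day Aldh median to -0.19.

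**Figure D2:**
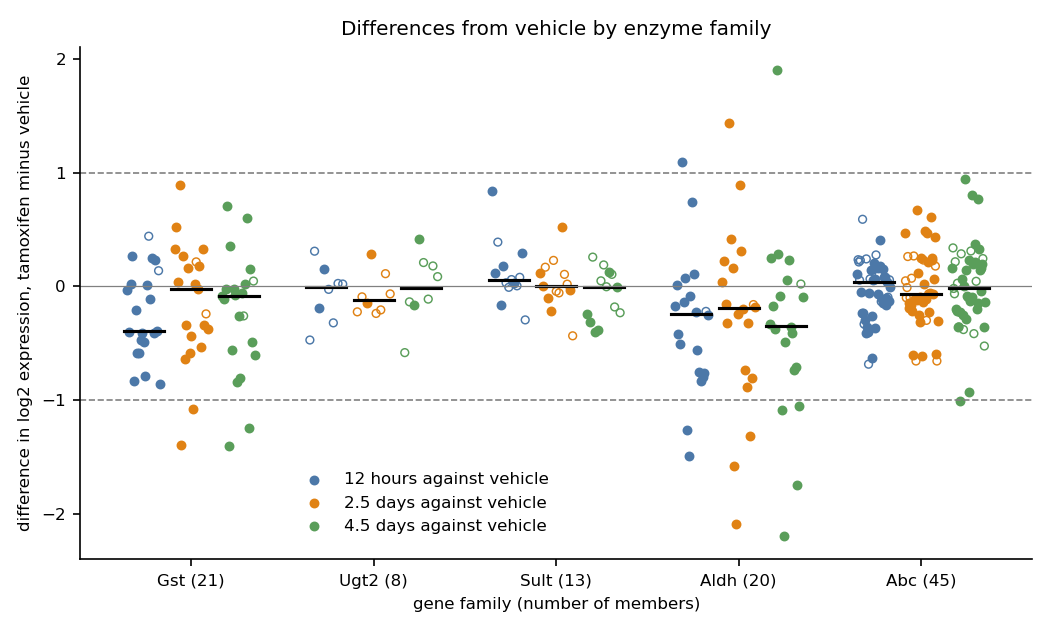
Difference in log2 expression from vehicle (y axis) for each of the 107 members, by family and time; filled points are expressed in that pair of arrays, open points are not, black bars are medians over all members of the family, and dashed lines mark 2-fold. Aldh genes spread from -2.20 to 1.90 at 4.5 days, whereas no Ugt2 or Sult gene reached 2-fold at any time.

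Among glutathione S-transferases, 3 of 21 genes were at least 2-fold lower at 1 or 2 times and none was higher, though Gstcd passed 2-fold higher at 2.5 days, at 1.02, after subtraction of the hybridisation controls. Gstk1, the kappa enzyme of mitochondria and peroxisomes, was at 10.98 in vehicle, 10.15 at 12 hours and 9.58 at both 2.5 and 4.5 days. It was 2.63-fold and 2.65-fold lower at the last 2 times and 1.78-fold lower at 12 hours. Gstt1, a theta enzyme that acts on small halogenated molecules, was at 9.68 in vehicle and at 9.26, 9.15 and 8.43, so that only the 4.5-day array was past 2-fold, at 2.38-fold lower. Most of that lay in the step from 2.5 to 4.5 days, a difference of -0.72. The other theta genes above the median, Gstt2 and Gstt3, differed at 4.5 days by 0.15 and -0.49.

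The 7 mu-class genes (Gstm) conjugate a wide range of electrophiles. By the probe set read for each, all 7 were below vehicle at 12 hours, with differences from -0.79 to -0.20. Their median difference was -0.49 at 12 hours, -0.44 at 2.5 days and -0.26 at 4.5 days, with 5 and 6 of 7 below vehicle at the last 2 times. Of all 18193 genes 9654, 9635 and 9596 were below vehicle in order of time. Other probe sets did not all share the sign. The 4 of Gstm1 ranged from -0.31 to 0.04 at 12 hours, and the other one of Gstm3 was at 0.24 at 4.5 days. Gstm7 was at 7.22 in vehicle, 6.43 at 12 hours, 6.14 at 2.5 days and 6.41 at 4.5 days. It passed 2-fold at 2.5 days, at 2.11-fold lower, but its other probe set, also above the median on all arrays, differed by -0.01 there. The mean over both was -0.54, and subtraction of the hybridisation controls gave -0.95, both short of 2-fold. Gstm1 went from 11.02 in vehicle to 10.81 at 12 hours, then to 11.28 and 11.38. Mu-class genes lie close in sequence to one another, so their probe sets may partly read the same transcripts and they are not independent counts.

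Several alpha, pi and omega enzymes were nearly level across the arrays. Gsta4, which conjugates hydroxynonenal from oxidised lipids, stayed between 13.74 and 13.79 on the 4 arrays. Gstp1, the pi enzyme, stayed between 13.03 and 13.17, and Gsto1, the omega enzyme with dehydroascorbate reductase activity, between 13.86 and 13.93. The probe sets of Gsta4, Gstp1 and Gsto1 lie near the top of the scale. Gstp3, at 5.12 in vehicle, was at 5.37, 5.31 and 5.72 with tamoxifen. Gsta3 moved more: it was at 8.47 in vehicle, 8.07 at 12 hours, 8.99 at 2.5 days and 8.36 at 4.5 days. Its step of 0.92 from 12 hours to 2.5 days was the largest increase among expressed members. The size of that step rests on the probe set read. The other one, also above the median, differed from vehicle by 0.01 at 12 hours, 0.40 at 2.5 days and -0.01 at 4.5 days. Gsta2 was at 10.38 in vehicle and 10.34, 10.70 and 10.29 with tamoxifen, and could share signal with Gsta1.

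Gstz1, the zeta enzyme of tyrosine breakdown, differed by -0.86, -0.38 and -0.60. Gstcd, which carries a Gst-like domain and is not a classical transferase, differed by 0.27, 0.89 and 0.71. Over all 21 Gst genes the median difference was -0.39 at 12 hours, -0.02 at 2.5 days and -0.08 at 4.5 days, against -0.02 at each time over all 18193 genes, and subtraction of the hybridisation controls turned the 2.5-day and 4.5-day values to 0.11 and 0.081. The lower median at 12 hours was on the array with the squamous and acinar differences given above, whose part in it was not tested. It moved to -0.12 when a gene was read by the probe set in the middle of its absolute differences.

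**Figure D3:**
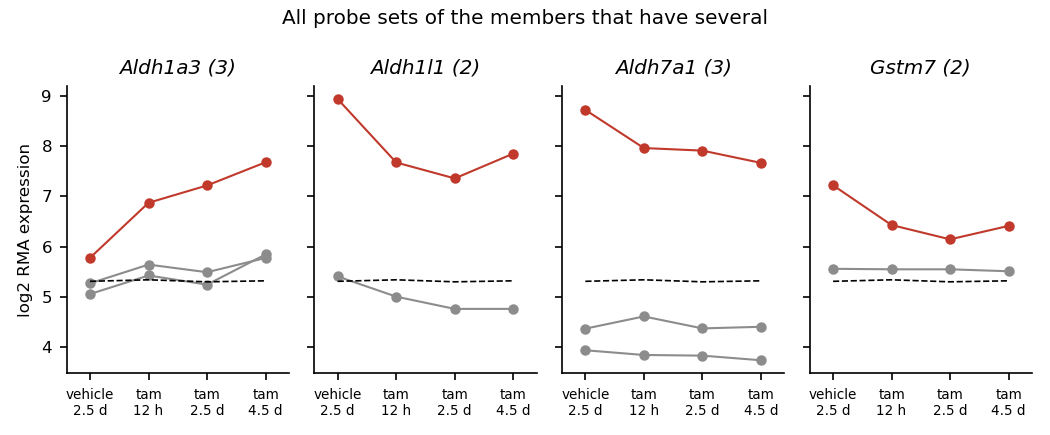
Log2 RMA expression (y axis) of every probe set of the 4 members past 2-fold that have several, on the 4 arrays (x axis); red is the probe set read for the gene, grey the others, and the dashed line the array medians. In each gene the red probe set is the brightest and moves most, and the 2 grey probe sets of Aldh7a1 stay between 3.74 and 4.61, under the median.

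UDP-glucuronosyltransferases had 2 of 8 members above the median, neither past 2-fold. Ugt2b34 was at 11.97 in vehicle and at 11.78, 11.82 and 11.81 with tamoxifen, with differences of -0.19 to -0.15. Ugt2b35 was at 9.36 in vehicle and 9.52, 9.64 and 9.78. The remaining genes, Ugt2a3, Ugt2b1, Ugt2b5, Ugt2b36, Ugt2b37 and Ugt2b38, were below the median on all 4 arrays. Ugt2b genes are close copies of one another and their probe sets may share signal.

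Sulfotransferases had 6 of 13 members above the median and none past 2-fold. Sult1c2 was at 12.04 in vehicle and 11.87, 11.93 and 11.64 with tamoxifen. Sult1d1, which sulfates catecholamines, was at 11.60 and then 11.79, 11.39 and 11.22, and Sult1b1, which acts on thyroid hormone, at 10.12 and then 10.24, 10.12 and 9.81. Sult1a1, the phenol sulfotransferase that also acts on hydroxylated tamoxifen, stood out at 12 hours with a level of 8.42 against 7.59 in vehicle, 7.70 at 2.5 days and 7.34 at 4.5 days. Its difference of 0.84 at 12 hours was short of 2-fold. That array also had the squamous and acinar differences given above, whose part in this value was not tested. Sult2b1, which sulfates cholesterol, differed by 0.03, 0.53 and 0.13. The members below the median on all arrays were Sult1c1, Sult1e1, Sult2a2, Sult2a8, Sult3a1, Sult4a1 and Sult6b1.

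Among 45 Abc genes 32 were above the median on at least 1 array, and 1 was past 2-fold at 1 time. Abca8a, a lipid transporter, was at 9.06 in vehicle, 8.65 at 12 hours, 8.46 at 2.5 days and 8.06 at 4.5 days, where it was 2.01-fold lower and so just past the threshold. After subtraction of the hybridisation controls it was at -0.84, short of 2-fold. The family median was 0.04, -0.07 and -0.02 in order of time, and that subtraction turned its sign each time, to -0.009, 0.057 and 0.15. Of the expressed Abc genes 96.8%, 84.4% and 84.4% lay within 0.5 of vehicle on the log2 scale, against 87.8%, 79.3% and 75.5% of all expressed genes.

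Exporters of drugs and conjugates were read mostly above the median. Abcb1b, which with Abcb1a encodes the P-glycoprotein drug pumps, was at 5.02 in vehicle, 5.09 at 12 hours, 5.70 at 2.5 days and 5.97 at 4.5 days. Its difference of 0.94 at 4.5 days was just short of 2-fold and became 1.11, past it, after subtraction of the hybridisation controls. Abcb1b was above the median on the last 2 arrays only. Abcb1a, its paralog, was between 5.55 and 5.67 on all 4. Abcg2, the breast cancer resistance protein, was at 7.10 in vehicle and 7.13, 7.53 and 7.30. Abcc1, an exporter of glutathione conjugates, was at 9.68 and then 9.89, 9.93 and 9.91. Its other probe set, also above the median, differed more from vehicle, by 0.67, 0.58 and 0.71. Abcc3, which exports glucuronides across the basolateral membrane, was at 11.13 and then 11.30, 11.15 and 11.04. Abcc4, an exporter of cyclic nucleotides and prostaglandins, was at 8.33 in vehicle and 8.49, 8.82 and 9.13, with a largest difference of 0.80. Abcc10 went the other way, at 6.80 in vehicle and 6.43, 6.19 and 5.87, a largest difference of -0.93.

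Of the transporters of sterols and other lipids, Abca8a was the 1 past 2-fold. Abca1, which loads cholesterol onto apolipoprotein A-I, was at 8.35 in vehicle and 8.46, 8.81 and 8.51. Abcg1, which exports sterol to lipoproteins, differed by -0.10, 0.06 and 0.16, and Abcg4, a related sterol exporter, by -0.12, -0.60 and -0.36. Abca3, of surfactant lipid storage, differed by -0.24, -0.14 and -0.21, and Abca7 by -0.30, -0.22 and -0.23. Abcg8 was at 6.12 in vehicle and between 5.81 and 6.12 on the tamoxifen arrays, while Abcg5, its partner in sterol secretion, was below the median on all 4.

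No organelle transporter or ribosome-acting member passed 2-fold. Abcd3, which imports fatty acids into peroxisomes, was at 12.50 in vehicle and 12.39, 12.27 and 12.30. Of the mitochondrial Abcb genes, Abcb8 differed by -0.63, -0.09 and -0.08, Abcb10 by -0.40, -0.11 and -0.25, and Abcb6, of porphyrin transport, by -0.27, -0.25 and -0.29. The other probe set of Abcb8 differed by 0.11, 0.073 and 0.125. The other one of Abcb10 above the median differed by 0.039, 0.014 and -0.002. Abcc9, a regulatory subunit of ATP-sensitive potassium channels, differed by 0.18, 0.21 and 0.37. Abce1, which splits ribosomes after termination, was at 9.51 in vehicle and 9.66, 10.12 and 10.28, with a largest difference of 0.77. Abcf1 and Abcf2 differed at 4.5 days by 0.33 and 0.15. Below the median on all arrays were 13 Abc genes, among them Abcb11, the bile salt export pump, Abcc2, the apical conjugate exporter, and Abca12, a lipid transporter of epidermis.

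Between the tamoxifen arrays no member passed 2-fold in either direction as deposited. After subtraction of the hybridisation controls Gsta3 did, on the brighter of its 2 probe sets, at 1.10 from 12 hours to 2.5 days. Over all expressed genes 2.58% were higher and 0.655% lower at 2.5 days than at 12 hours, and 0.248% were higher and 0.182% lower at 4.5 days than at 2.5 days. Largest in size after Gsta3 was Sult1a1, at -0.72 between 12 hours and 2.5 days, and the step from 2.5 to 4.5 days was led by Aldh3a1 and Gstt1. Of the expressed members 96.2% lay within 0.5 in the step from 2.5 to 4.5 days, against 97.0% of all expressed genes.

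Genes around these families were described from 6 lists with 82 measured genes, to be read against the shares of all genes given above. Each was read by its brightest probe set as deposited. Other probe sets and scalings are given for members only, so calls in the lists may rest on 1 probe set. Glutathione supply and use had 15 measured genes, with 2 at least 2-fold higher at each time and none lower. Its median difference was 0.21, 0.42 and 0.28 in order of time. Gclc, the catalytic subunit of glutamate-cysteine ligase, was at 10.47 in vehicle, 12.17 at 12 hours, 11.21 at 2.5 days and 11.35 at 4.5 days. Gpx2, an epithelial glutathione peroxidase, was at 10.51 in vehicle and 10.72, 11.90 and 12.65. The cystine transporter gene Slc7a11 was at 3.59 in vehicle, under the median, and at 5.92, 6.29 and 7.01. Slc7a11 was past 2-fold at all 3 times, Gclc at 12 hours and Gpx2 at the last 2. The part of the squamous and acinar differences of the 12-hour array in the Gclc value there was not tested. Glutathione synthetase (Gss) and glutathione reductase (Gsr) differed by 0.83 and 0.80 at 4.5 days. Chac1 differed by 0.91, -0.46 and -0.59 in order of time. The microsomal transferases, whose symbols put them outside the members, differed at 4.5 days by 0.61 for Mgst1, -0.40 for Mgst2 and -0.33 for Mgst3.

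The genes that supply or remove the other conjugates were near vehicle, with 0 of 9 past 2-fold at any time as deposited. Ugdh, which makes UDP-glucuronic acid, stayed between 12.40 and 12.46, and Papss2, which makes the sulfate donor, between 11.35 and 11.68. Gusb, the lysosomal enzyme that removes glucuronic acid, had the largest difference, 0.96 at 4.5 days, just short of 2-fold. Ugp2, which makes UDP-glucose, differed by 0.25, 0.53 and 0.64. The list's median was 0.10, 0.02 and 0.05. Of 11 other conjugating and detoxifying enzymes none was past 2-fold at 12 hours, and 1 and 2 were lower at 2.5 and 4.5 days. Gnmt, glycine N-methyltransferase, was at 7.56 in vehicle and 6.71, 6.43 and 6.29. Ephx2, the soluble epoxide hydrolase, was at 9.99 and then 9.88, 9.21 and 8.72. Nqo1, a quinone reductase and a textbook NRF2 target, stayed between 10.86 and 11.14. The median of these 11 genes was -0.30, -0.14 and -0.11.

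Sensors of foreign compounds and sterols had a median difference of -0.05, -0.04 and -0.05. Nfe2l2, which encodes NRF2, stayed between 11.94 and 12.04, and Ahr, the aryl hydrocarbon receptor gene, between 8.87 and 9.01. Nr1i2, the pregnane X receptor gene, stayed between 6.92 and 7.28, and Nr1i3 was below the median throughout. Mafg was at 7.89 in vehicle and at 8.50, 8.52 and 8.60 with tamoxifen, differences of 0.60, 0.62 and 0.70. Ppara, a receptor for fatty acids, was at 5.88 in vehicle and 5.06, 4.68 and 4.94, and at 2.5 days it was the 1 gene of 15 in this list past 2-fold.

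Retinoid genes moved on both sides of vehicle. Rdh10, the main enzyme that makes retinal for the Aldh1a enzymes, was at 9.24 in vehicle, 10.08 at 12 hours, 10.00 at 2.5 days and 10.26 at 4.5 days, and passed 2-fold at the last time. Rdh7 was at 10.35 in vehicle and 8.40, 7.14 and 7.54, lower at all 3 times. Rdh12 differed by -1.55 at 12 hours but was below the median on all arrays, and none of the other 18 measured genes differed by 2-fold at any time. The list's median was -0.15, -0.17 and -0.34. Rbp2, a cellular retinol binding protein, was at 8.36 in vehicle and 7.39 at 4.5 days. Rarb and Cyp26a1, which are textbook targets of retinoic acid, were below the median on all arrays, and Cyp26b1 differed by -0.50, -0.69 and -0.59. Among 11 partners of the lipid transporters, the apolipoprotein gene Apoa1 was the 1 gene past 2-fold, and it was lower at all 3 times. It went from 13.50 in vehicle to 12.40, 9.99 and 10.90. Apoe, another apolipoprotein of sterol transport, differed by -0.04, 0.74 and 0.69, and Scarb1 by 0.49, 0.575 and 0.71. The median of these 11 genes was -0.08, 0.02 and 0.01.

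**Figure D4:**
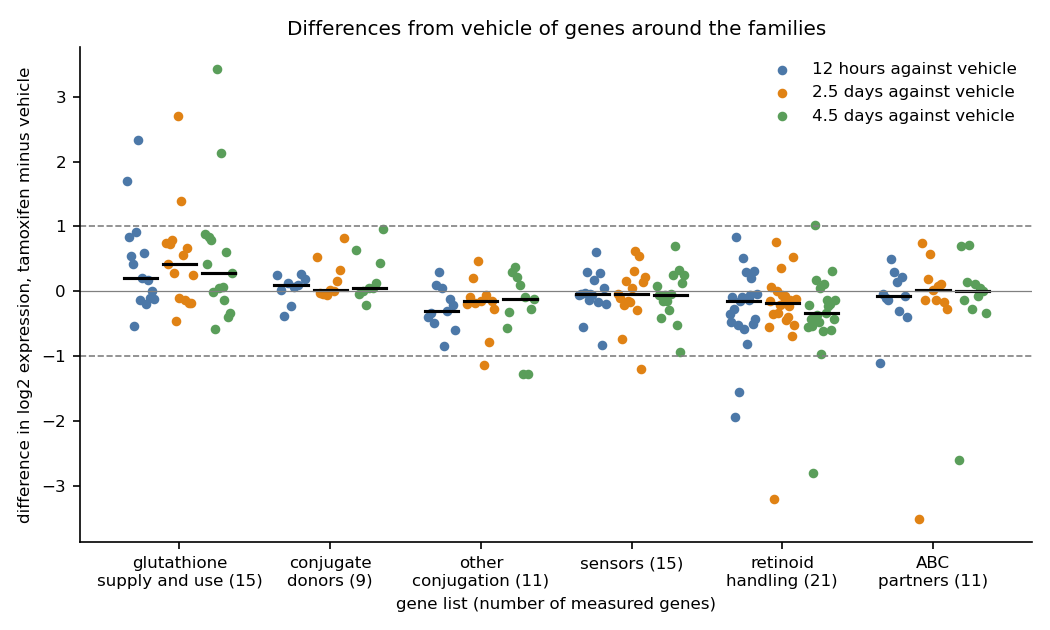
Difference in log2 expression from vehicle (y axis) for the 82 measured genes of 6 lists, by list and time; each point is a gene, black bars are medians and dashed lines mark 2-fold. The glutathione list has the highest points, with Slc7a11 at 3.42, and the list of conjugate donors stays inside the 2-fold lines at all 3 times as deposited.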

How the data were processed

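The series was 4 single-colour Affymetrix mouse arrays of gastric corpus epithelium RNA, each a pool of 3 mice per the labels' protocols. The authors deposited 1 log2 value for each of 45101 probe sets; the log base was inferred from the values. Per the submitters' processing notes the tools were RMA and Partek, with no version given in these sources. RMA brings arrays to a common distribution, which hides any change in total RNA. Gene symbols came from the platform annotation: 34945 probe sets had 1 symbol, and 64 control probe sets were left out. Each gene was read from its probe set of highest mean. With 1 array per group, differences of log2 values were counted at 2-fold among genes whose brighter array was at or above its median; the number of arrays limits the precision. The rule was run on simulated data whose changes were larger than 2-fold, in genes well above the median. That run cannot show how the rule does near the threshold or in dim genes. Named were all members past 2-fold in a comparison with vehicle, the member of highest mean in each family, and genes of each list. The list genes named include some of those with the largest differences but not all of them. Other named genes were chosen after their values were seen. Members and lists were chosen with earlier results of these data known. Of 91 genes in the 6 lists around the families 82 were measured, and of 97 in 17 cell type lists 90. Of the 107 members 87 matched the RefSeq promoter table (GRCm38). Alternatives were 2 other ways to read a gene's probe sets, 2 other filters and 2 other scalings. Computations used Python 3.11.15, pandas 2.3.3 and numpy 2.4.6.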

Additional observations from a re-analysis of the deposited data

How the results depend on the processing

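Reading a gene by the probe set in the middle of its absolute differences, the higher members fell to 0 at all 3 times, and the lower ones to 1 at 12 hours and 3 at 2.5 days. The mean over probe sets gave 0 higher at 12 hours and at 2.5 days, and 1 lower at 12 hours. A filter at the 75th percentile left 0 higher at 12 hours and at 2.5 days. Subtracting the mean of the 18 hybridisation controls (0.05, -0.13 and -0.16 in order of time) gave 3 higher at 2.5 days, 2 higher and 4 lower at 4.5 days, and 1 higher at 2.5 days against 12 hours. The members it added were Aldh3a1 and Gstcd at 2.5 days, Abcb1b at 4.5 days and Gsta3 between the tamoxifen arrays. With no filter, or centred on expressed genes, counts stayed within 1.5 times. Of the 17 differences past 2-fold, all kept their sign under each reading and scaling, while 9 stayed past 2-fold with that probe set, 11 with the mean over probe sets, 13 after the control subtraction and 17 after centring. Family medians moved by more than the closest pair's robust SD as follows, under alternatives chosen after seeing the data. The Gst median at 12 hours was -0.12 with that probe set and -0.20 with the mean, and the Aldh median at 4.5 days was -0.19 with the former. After the control subtraction the 4.5-day medians were 0.081 for Gst, 0.15 for Ugt, 0.16 for Sult, -0.18 for Aldh and 0.15 for Abc, so that Gst, Ugt, Sult and Abc changed sign. Smaller moves also changed signs: at 2.5 days Gst became 0.11, Ugt 0.009 and Abc 0.057, and at 12 hours Abc became -0.009, while Aldh at 2.5 days became -0.062. Apart from what these alternatives themselves change, the cause was not tested. Dim probe sets lie near the scale's floor, which limits what they can show.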

Other observations

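Of the 7 probe sets that carry a family symbol together with others, and so were left out, 3 list 8 Ugt1 genes each, whose transcripts share their last exons. These 3 differed from vehicle by -0.44 to -0.43 on the log2 scale at 12 hours, by -0.39 to -0.38 at 2.5 days and by -0.66 to -0.65 at 4.5 days, from vehicle levels of 10.29 to 12.00. They measure the family as a whole and assign nothing to a single gene. A probe set with 3 symbols of alpha-class glutathione S-transferases stood at 13.99 in vehicle and between 14.01 and 14.05 on the tamoxifen arrays, near the top of the scale.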
